A study of Rattus norvegicus with 42 samples.

Results

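The enzymes described here make cholesterol from its small precursors: Idi1, Fdps, Fdft1, Sqle, Dhcr7 and Hmgcs1. They were chosen by name. The measurements are those of every probe set whose single gene symbol in the platform annotation is one of these names. That gave 7 probe sets of 5 genes among 31042 probe sets tested and 14217 named genes. Hmgcs1, which makes HMG-CoA in the cytosol, has no probe set of that symbol in the annotation and is not analysed here. All members belong to synthesis and none to the uptake of low-density lipoprotein, so the set is called cholesterol synthesis below. Idi1 and Fdft1 have 2 probe sets each. The one with the higher mean over all arrays is used for counts and the other is given beside it.

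Liver, brain and lung came from 1 untreated rat, per the series design. The labels give an age of 9 to 12 weeks and no strain or sex. Total RNA was labelled with biotin and hybridised to Affymetrix rat arrays, either as pure liver, pure brain and pure lung or after mixing the labelled RNA (cRNA) in 11 proportions, with 3 technical replicate arrays for each of the 14 groups. Each mixture is named by its percent of liver, then of brain, then of lung: 5/25/70, 25/70/5, 45/45/10, 50/30/20, 50/40/10, 55/20/25, 55/30/15, 60/35/5, 65/34/1, 70/5/25 and 70/25/5. All arrays carry RNA of the same animal, so p-values measure the spread between arrays and say nothing of differences between rats, and the number of arrays limits the precision. In a bulk sample, fewer cells that express a gene and less of its RNA per cell cannot be told apart.

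Cholesterol is built from acetyl-CoA through mevalonate, isoprene units, farnesyl diphosphate and squalene, which is closed into a ring and trimmed to cholesterol. The transcription factor SREBP-2, encoded by Srebf2, switches on the genes of this pathway when the membranes of the endoplasmic reticulum are short of sterol. Liver makes cholesterol for lipoproteins and bile acids, while the adult brain makes its own behind the blood-brain barrier, largely for myelin.

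Promoter sequences were in the RefSeq table (GRCr8) for 4 of the 6 members. They are shown for the 3 of those with array values because these genes moved together between tissues, and each is the 150 bases before the annotated start, 5′ to 3′ on the gene's strand. Capitals mark the CCAAT box (CCAAT, on either strand) in Idi1, chr17:66547525-66547674 on the minus strand, and in Fdps, chr2:176804817-176804966 on the minus strand. In Dhcr7, chr1:208444284-208444433 on the plus strand, they mark the GC box (GGGCGG), which occurs there in overlapping copies.
Idi1: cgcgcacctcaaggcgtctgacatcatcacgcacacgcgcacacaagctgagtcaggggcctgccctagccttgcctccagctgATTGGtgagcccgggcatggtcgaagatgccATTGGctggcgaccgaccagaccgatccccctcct
Fdps: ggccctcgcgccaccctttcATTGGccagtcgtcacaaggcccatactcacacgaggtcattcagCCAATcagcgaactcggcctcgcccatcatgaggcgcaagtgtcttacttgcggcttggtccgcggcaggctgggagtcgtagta
Dhcr7: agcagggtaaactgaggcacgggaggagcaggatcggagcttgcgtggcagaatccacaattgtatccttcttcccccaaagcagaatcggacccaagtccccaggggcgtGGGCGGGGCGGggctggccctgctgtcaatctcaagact
Motifs were searched on both strands in windows of 300 bases that span the start. CCAAT was in 3 of the 4 member promoters (Fdps, Hmgcs1 and Idi1) and in 10 of 12 promoters of other enzymes of the pathway, against 37.5% of 33469 promoters. GGGCGG was in 3 of 4 (Dhcr7, Fdps and Hmgcs1) and in 10 of 12, against 33.1%. A relaxed form of the sterol regulatory element, TCACNCCAC, was in 0 of 4 and 0 of 12, against 1.12% of all promoters. No match says only that these letters are not in this window.

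All 5 measured genes were higher in liver than in brain and in lung. By limma across all probe sets, 5 of 5 were called higher in liver than in brain, where called means a Benjamini-Hochberg adjusted p under 0.05 and a difference of at least 2-fold, against 14.6% of all probe sets (18.9% lower, 33.5% in either direction). Likewise 5 of 5 were called higher in liver than in lung, against 10.8% (17.2% lower, 28% in either direction). Between brain and lung 0 of 5 were called, against 31% of all probe sets. Being at least 2-fold higher in liver than in both other tissues held for 5 of 5 genes and for 7.28% of probe sets. The median difference of the 5 genes was 2.12 (log2) for liver minus brain and 2.21 for liver minus lung, where the medians over all probe sets were 0.18 and 0.12.

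**Figure D1:**
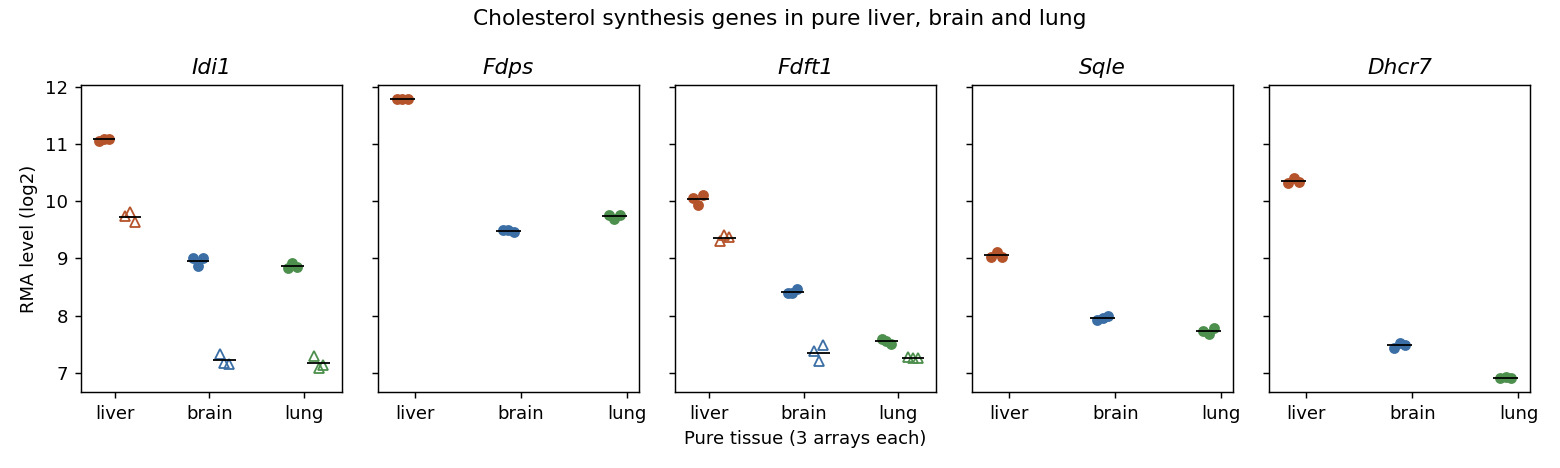
RMA level (log2, vertical axis) of each member in pure liver, brain and lung, 1 point per array and a bar at the mean of 3 arrays; filled circles are the brighter probe set and open triangles the second one of Idi1 and Fdft1. In each panel the liver points lie above all brain and lung points, while brain and lung points lie close together except for Fdft1 and Dhcr7.

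The isoprene steps came first in the pathway order. Idi1 encodes isopentenyl diphosphate isomerase, which interconverts both isoprene units. Its RMA levels were 11.05, 11.10 and 11.09 (log2) on the liver arrays, 9.00, 8.87 and 9.02 in brain, and 8.84, 8.92 and 8.85 in lung. Every liver array was above every other array, whereas the brain and lung arrays overlapped. Idi1 was 4.34-fold higher in liver than in brain (2.12 ± 0.05, log2, SE, limma adjusted p = 1.38e-29) and 4.64-fold higher than in lung (2.21 ± 0.05, adjusted p = 6.13e-30). Brain minus lung was 0.10 ± 0.05 (95% interval -0.00023 to 0.19, adjusted p = 0.0689). The second Idi1 probe set had means of 9.73, 7.22 and 7.17 in liver, brain and lung, which makes 5.71-fold and 5.88-fold.

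Fdps, the synthase of farnesyl diphosphate, branch point of sterols, dolichol and protein prenyl groups, had levels of 11.79 (log2) on each of 3 liver arrays, 9.49, 9.49 and 9.47 in brain, and 9.75, 9.69 and 9.77 in lung. It was the one member with lung as its second tissue, and its brain and lung arrays did not overlap. Liver was 4.94-fold above brain (2.31 ± 0.04, adjusted p = 3.89e-32) and 4.16-fold above lung (2.05 ± 0.04, adjusted p = 2.12e-30). Brain minus lung was -0.25 ± 0.04 (adjusted p = 2.77e-06 by limma), below the 2-fold limit.

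The steps through squalene followed. Fdft1 encodes squalene synthase, which joins farnesyl diphosphate molecules and commits them to sterols. Its levels were 10.06, 9.93 and 10.11 (log2) in liver, 8.39, 8.40 and 8.46 in brain, and 7.60, 7.56 and 7.51 in lung. The groups did not overlap in any pair of tissues. Liver was 3.07-fold above brain (1.62 ± 0.05, adjusted p = 7.58e-26) and 5.58-fold above lung (2.48 ± 0.05, adjusted p = 3.29e-31). Brain minus lung was 0.86 ± 0.05 (limma adjusted p = 1.07e-17), the largest such difference among the 5 genes and still under the 2-fold limit. Its second probe set did not share this: its means were 9.37 in liver, 7.35 in brain and 7.26 in lung, with brain minus lung at 0.09 ± 0.05 (adjusted p = 0.122). The order of brain and lung for Fdft1 therefore rests on 1 of its 2 probe sets, while both place liver highest.

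Sqle, squalene epoxidase, adds the oxygen that ring closure needs. Its levels were 9.02, 9.11 and 9.03 (log2) in liver, 7.92, 7.95 and 7.99 in brain, and 7.74, 7.68 and 7.78 in lung. It showed the smallest differences of the 5 genes. Liver was 2.14-fold above brain (1.10 ± 0.06, adjusted p = 1.57e-18 by limma) and 2.50-fold above lung (1.32 ± 0.06, adjusted p = 1.03e-20). The 95% interval of liver minus brain reaches down to 0.98, under the 2-fold limit. Both calls ended under control-curve scaling, which moves all arrays to the same levels of the bacterial and phage transcripts used as hybridisation controls: liver minus brain became 0.37 (adjusted p = 0.163) and liver minus lung 0.50 (adjusted p = 0.0527). That scaling moved the median of all probe sets to -0.66 for liver minus brain and -0.80 for liver minus lung, so that Sqle stayed above those medians.

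Dhcr7, 7-dehydrocholesterol reductase, performs the last step of one branch to cholesterol. Its levels were 10.32, 10.41 and 10.33 (log2) in liver, 7.43, 7.51 and 7.49 in brain, and 6.90, 6.93 and 6.91 in lung. No tissues overlapped, and it had the largest differences of the 5 genes. Liver was 7.35-fold above brain (2.88 ± 0.05, adjusted p = 3.39e-33) and 10.9-fold above lung (3.44 ± 0.05, adjusted p = 2.78e-35). Brain minus lung was 0.56 ± 0.05 (limma adjusted p = 1.48e-12), a 1.48-fold difference.

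**Figure D2:**
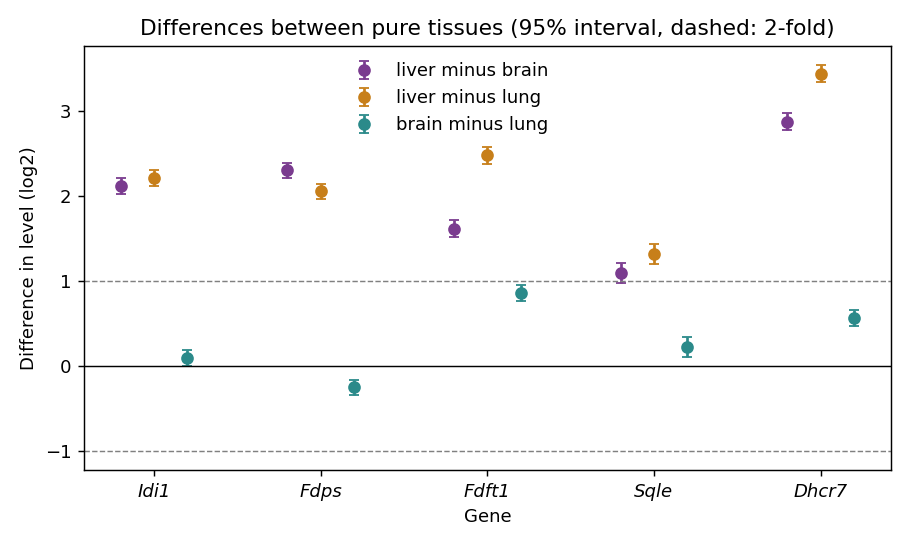
Difference in RMA level (log2, vertical axis) between pure tissues for each gene, with the 95% interval from the limma fit. Liver minus brain and liver minus lung lie between 1.10 and 3.44 for all 5 genes, and brain minus lung between -0.25 and 0.86, inside the dashed 2-fold lines.

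The tissue labels were checked against marker genes. All 9 hepatocyte markers were at least 2-fold higher in liver than in both other tissues, all 5 measured oligodendrocyte, 6 neuron and 3 astrocyte markers in brain, and all 6 lung epithelial markers in lung. Hepatocyte markers were not equal in brain and lung. At least 2-fold higher in brain than in lung were 6 of 9, against 15% of all probe sets (31% in either direction). Their summed linear level was 74807 to 76829 in liver, 5140 to 5270 in brain and 130 to 140 in lung. Alb, albumin, accounts for most of the brain sum, at 12.21 (log2) in brain and 5.07 in lung, whereas Mbl2 was at 3.22 and 3.19. The part of this signal in the brain levels of the members was not tested.

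Other enzymes of the same pathway were mostly higher in liver as well. Of 14 listed, 13 were measured, and 9 of 13 were at least 2-fold higher in liver than in both other tissues (7.28% of all probe sets), with 0 so placed in brain (11.5%) and 0 in lung (8.95%). Against brain 9 were called higher in liver and 0 lower, and against lung 11 higher and 0 lower. Tm7sf2 and Ebp had the largest differences of the 13. Tm7sf2, a sterol reductase, averaged 10.93 ± 0.01 (log2, SD, n = 3) on liver arrays, 7.13 ± 0.10 on brain arrays and 6.02 ± 0.12 on lung arrays, with liver 13.9-fold above brain. Ebp, the sterol isomerase, averaged 10.49 ± 0.03 on liver arrays, 6.29 ± 0.17 on brain arrays and 7.04 ± 0.07 on lung arrays, with liver 10.9-fold above lung. Nsdhl and Hsd17b7, which act in the removal of methyl groups from the sterol ring, were 8.45-fold and 7.15-fold above brain, their second tissue.

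Of the enzymes that act before the isoprene units, Mvd (mevalonate diphosphate decarboxylase) was 2.83-fold above brain, Mvk (mevalonate kinase) 2.42-fold, Acat2 (acetoacetyl-CoA thiolase) 2.13-fold and Pmvk (phosphomevalonate kinase) 2.10-fold. Cyp51, the lanosterol demethylase, was 2.89-fold above brain. Under control-curve scaling Mvd, Mvk, Acat2 and Pmvk were no longer 2-fold higher than brain, although Mvd was still called against lung (1.34, log2). That left 5 of 13 at least 2-fold higher in liver than in both others, and 11 of 13 were so after centring arrays on their medians. These scalings moved the median of all probe sets for liver minus brain from 0.18 to -0.66 and 0.42. The shares of all probe sets called under them are not given here. Msmo1 and Sc5d missed the 2-fold limit against brain, at 0.91 and 0.89 (log2), and were called against lung at 2.13 and 2.60. Other Sc5d probe sets read 10.32 and 9.59 in liver against 8.97 and 9.03 in brain, a wider and a narrower gap. Brain was called above lung for 4 of 13 (15% of all probe sets), and lung above brain for 0 of 13 (15.9%). The 4 were Tm7sf2 by 1.12, Cyp51 by 1.03, Msmo1 by 1.23 and Sc5d by 1.71. The other Cyp51 probe set read 7.59 in brain and 6.95 in lung, a gap under the 2-fold limit. Under control-curve scaling 2 of 13 were called above lung in brain, with Cyp51 at 0.80 and Msmo1 at 0.96 below the limit. Lss, lanosterol synthase, differed by 0.75 against brain and 0.48 against lung. The other Lss probe set read 6.72 in liver, 5.64 in brain and 5.62 in lung, gaps above the 2-fold limit. The place of Lss under that limit therefore rests on 1 of its 2 probe sets. Ggps1, which makes geranylgeranyl diphosphate, a side branch, had the opposite sign at -0.55 and -0.60, short of the limit, and was called lower in liver under control-curve scaling, at -1.42 and -1.54.

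**Figure D3:**
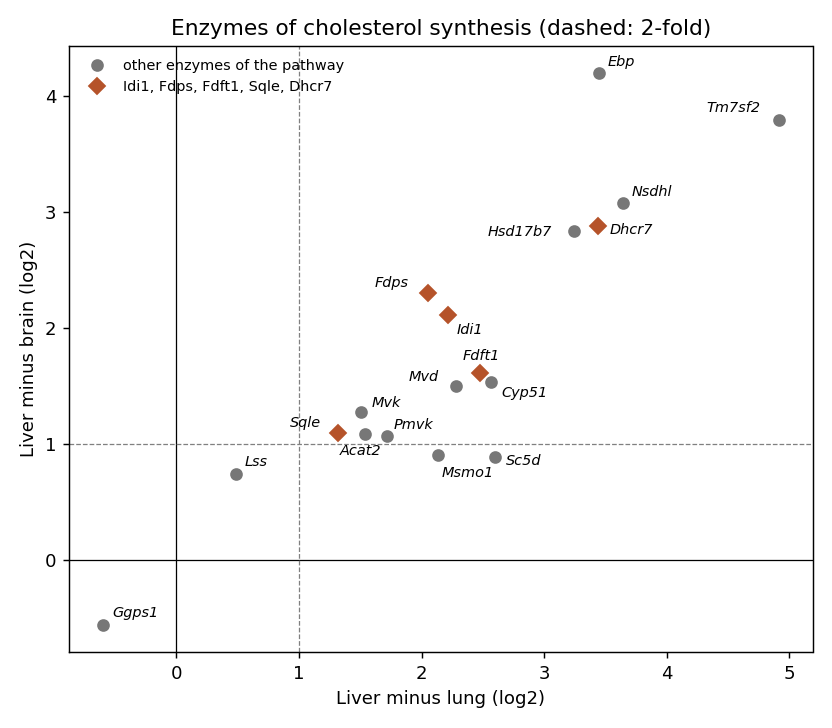
Liver minus lung (log2, horizontal axis) against liver minus brain (log2, vertical axis) for the 5 members (diamonds) and 13 other enzymes of the pathway (circles), as means of 3 arrays per tissue. All but Ggps1 lie above 0 on both axes, with Tm7sf2 and Ebp farthest out and Lss, Msmo1 and Sc5d below the horizontal dashed 2-fold line.

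The genes that control the pathway were less uniform. Of 8 SREBP control genes, 3 were at least 2-fold higher in liver than in both others (7.28% of all probe sets), 4 after median centring and 1 under control-curve scaling, where 1, Mbtps1, was highest in lung. Insig2, which holds SREBP in the endoplasmic reticulum, averaged 10.83 ± 0.10 (log2, SD, n = 3) on liver arrays, 7.95 ± 0.03 on brain arrays and 7.30 ± 0.17 on lung arrays. Insig1, with the same task, was 2.03-fold and the sterol carrier gene Stard4 2.11-fold above lung, and under control-curve scaling they were no longer 2-fold higher, at 0.35 and 0.18 (log2) above lung. Other Stard4 probe sets read 6.15 and 7.79 in liver against 5.64 and 6.15 in lung, a narrower and a wider gap. Srebf2, the transcription factor of the pathway, was not called in any pair of tissues: its levels were 7.98 ± 0.09 in liver, 8.38 ± 0.01 in brain and 8.28 ± 0.07 in lung. Its second, dimmer probe set was highest in liver, at 3.54, with 3.43 in brain and 3.35 in lung. Under control-curve scaling Srebf2 was called lower in liver than in brain (-1.23, log2) and in lung (-1.25). That scaling moved the medians of all probe sets in the same direction, from 0.18 to -0.66 against brain and from 0.12 to -0.80 against lung. The share of all probe sets called lower in liver under it is not given here. Mbtps2, a protease that releases SREBP, also had a sign opposite to the members, at -0.86 against brain and -0.55 against lung, short of the limit, and was called lower in liver under that scaling, at -1.72 and -1.48. Srebf1, which mainly drives fatty acid synthesis genes, was called higher in liver than in brain (1.60, log2) and not by 2-fold against lung (0.82). After median centring it was called against lung too (1.07), and under control-curve scaling against neither (0.97 and 0.07). The second, dimmer Srebf1 probe set read 7.69 in liver, 6.01 in brain and 6.43 in lung, a wider gap to lung.

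Genes of cholesterol turnover separated the tissues. Cyp7a1, the rate-limiting enzyme of bile acid synthesis, averaged 10.26 ± 0.08 (log2, SD, n = 3) on liver arrays, 3.08 ± 0.12 on brain arrays and 2.99 ± 0.28 on lung arrays. Lcat, which esterifies plasma cholesterol, and Cyp27a1, a sterol hydroxylase of bile acid synthesis, were also at least 2-fold higher in liver than in both others. Cyp46a1, the hydroxylase through which brain clears cholesterol, was highest in brain, 4.29-fold above liver. Soat1, Abca1 and Abcg1, which store or export cholesterol, were highest in lung, 6.52-fold, 2.61-fold and 2.75-fold above the next tissue. However, 2 of the 3 other Abca1 probe sets were highest in liver. Other Abcg1 probe sets were highest in lung by less than 2-fold, at 6.17 and 5.06 (log2) against 5.52 and 4.63 in brain. Among 5 measured lipoprotein receptor genes and partners, Lrp1 was 2.40-fold higher in liver than in lung and no longer 2-fold higher under control-curve scaling, at 0.74 (log2). The second, dimmer Lrp1 probe set read 5.10 in liver and 4.22 in lung, a gap under the 2-fold limit. Lrp8 was 5.95-fold higher in brain than in lung, and Mylip, a ligase that degrades lipoprotein receptors, 4.29-fold higher in lung than in brain. Vldlr was lower in liver than in both others, by 3.12 and 2.51 (log2), and it was highest in brain by this probe set but in lung by its 3 others. Scarb1 was called higher in liver than in brain (2.28, log2) and fell short of 2-fold against lung (0.95). After median centring Scarb1 was called against lung too (1.21), and under control-curve scaling it stood at 0.02 there.

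Mixtures gave measurements on other arrays than those of the pure tissues, but of the same labelled RNA. A gene higher in pure liver should rise with the liver share, so the counts below largely follow from the pure levels. When liver was exchanged for brain at 5% lung (70/25/5 minus 25/70/5), 5 of 5 genes were called higher at the larger liver share, by limma at an adjusted p under 0.05 with no fold limit, against 22.1% of all probe sets (53% in either direction). When liver was exchanged for lung at 25% brain (70/25/5 minus 5/25/70), 5 of 5 were again called higher, against 30.7% (61.3% in either direction). When brain was exchanged for lung at 70% liver (70/25/5 minus 70/5/25), 0 of 5 were called, against 46.8% in either direction. These comparisons share the 70/25/5 arrays.

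Dhcr7 had levels of 9.71, 9.65 and 9.71 (log2) at 70/25/5, 8.34, 8.29 and 8.42 at 25/70/5, and 7.35, 7.28 and 7.36 at 5/25/70. The 3 groups did not overlap. It was higher at 70/25/5 than at 25/70/5 by 1.34 ± 0.05 (SE, adjusted p = 5.84e-22), where the pure levels weighted by tissue share predict 1.08, and than at 5/25/70 by 2.36 ± 0.05 (adjusted p = 9.19e-30), where they predict 2.32. Its levels at 70/5/25 were 9.76, 9.79 and 9.69, overlapping those at 70/25/5, with a difference of -0.06 ± 0.05 (adjusted p = 0.345, 95% interval -0.16 to 0.04).

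Idi1 read 10.77, 10.70 and 10.65 at 70/25/5, 9.67, 9.68 and 9.67 at 25/70/5, and 9.01, 8.93 and 8.99 at 5/25/70, again without overlap. Fdps read 11.46, 11.41 and 11.49 at 70/25/5, 10.50, 10.44 and 10.56 at 25/70/5, and 9.96, 9.95 and 9.96 at 5/25/70. The exchange of liver for brain moved Idi1 by 1.03 (0.86 predicted), Fdps by 0.95 (0.92 predicted) and Fdft1 by 0.81 (0.70 predicted). For lung the values were 1.73 (1.57 predicted) for Idi1, 1.496 (1.503 predicted) for Fdps and 1.51 (1.62 predicted) for Fdft1. The second probe set of Idi1 moved by 1.10 (0.98 predicted) and 1.75 (1.82 predicted), and that of Fdft1 by 0.92 (0.83 predicted) and 1.32 (1.49 predicted). Sqle moved least, by 0.46 ± 0.06 (0.49 predicted, adjusted p = 2.02e-08) and 0.78 ± 0.06 (0.90 predicted, adjusted p = 5.59e-14).

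Under control-curve scaling 3 of 5 were called in the exchange of liver for brain, and the share of all probe sets under it is not given here. There Fdft1 stood at 0.44 (limma adjusted p = 0.122) and Sqle at 0.04 (adjusted p = 0.884). In the exchange of liver for lung, Sqle stood at 0.33 under that scaling (adjusted p = 0.271). In the exchange of brain for lung, Fdps stood at -0.10 ± 0.04 with an adjusted p of 0.0518. It was called with a variance trend, after median centring (-0.16), after background subtraction, among bright probe sets only and over gene means, with adjusted p between 0.0026 and 0.0257, and without replicate 3 of 70/25/5 (-0.12, adjusted p = 0.0404). The second probe set of Fdft1 was called in that exchange, at -0.16 ± 0.05 (adjusted p = 0.0167).

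The level in each mixture was then compared with the sum of the pure tissue levels, weighted by tissue share on the linear scale. Averaged over the 11 mixtures, none of the 5 genes departed from that sum by 1.5-fold at an adjusted p under 0.05 (0 of 5), against 5.17% of all probe sets. Without the fold limit 4 of 5 had an adjusted p under 0.05, as did 84.4% of all probe sets. Fdps lay above the sum in 11 of 11 mixtures, by a mean of 0.10 ± 0.03 (log2, SE, limma adjusted p = 9.94e-04). Dhcr7, Sqle and Fdft1 lay below it in 11 of 11, by -0.36 ± 0.03 (adjusted p = 6.73e-12), -0.29 ± 0.03 (adjusted p = 6.78e-10) and -0.26 ± 0.03 (adjusted p = 6.00e-10). Idi1 was at -0.05 ± 0.03 (adjusted p = 0.0782), below in 9 of 11.

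The median over all probe sets was -0.22, so Fdft1, Sqle and Dhcr7 lay near it or below it, and Idi1 and Fdps above it. Probe sets of 1 gene did not always share a departure: the second ones of Idi1 and Fdft1 stood at -0.39 ± 0.05 and -0.45 ± 0.03. For Dhcr7 the departure ran between -0.49 in 25/70/5, the mixture richest in brain, and -0.16 in 70/5/25, with 5% brain. Idi1 had its lowest and highest departures in the same 2 mixtures, -0.17 and 0.02, and so did Fdps, 0.02 and 0.14. Fdft1 and Sqle did not: their lowest were -0.36 in 50/40/10 and -0.38 in 60/35/5. Both had their highest in 5/25/70, at -0.11 and -0.15. These departures depended on the scaling. After median centring Dhcr7 passed the limit at -0.60 and Fdps turned to -0.12. Under control-curve scaling Fdps stood at -0.05 and none of the 5 had an adjusted p under 0.05 (0.297 to 0.882). Against pure levels averaged on the log2 scale, Dhcr7 turned to 0.23 and Idi1 to 0.26, and after repeated quantile normalization Idi1 stood at 0.04.

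**Figure D4:**
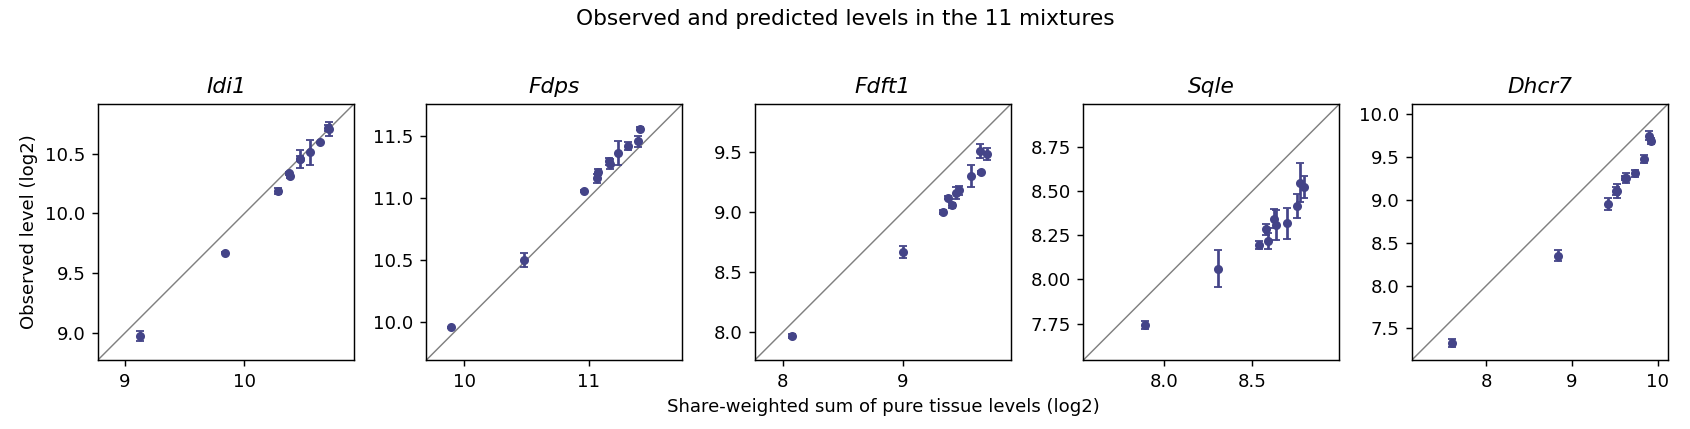
Observed level (log2, vertical axis, mean and SD of 3 arrays) in each of the 11 mixtures against the level predicted from pure tissue and tissue shares (log2, horizontal axis), with the line of equality. Fdps points lie just above the line in all 11 mixtures, Idi1 points close to it, and Fdft1, Sqle and Dhcr7 points below it in all 11.

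The tissue levels were also inferred from the mixtures alone, by regressing the 11 mixture means on the tissue shares with no pure array. Here too the RNA is that of the pure arrays, so calls of liver above the others largely follow from the pure levels. Liver was called above brain in 5 of 5 genes, against 28.6% of probe sets (60.8% in either direction), and above lung in 5 of 5, against 29.2% (59.9% in either direction), at an adjusted p under 0.05. Under control-curve scaling neither difference was called for Sqle. The regression then put its liver level above brain by 53.2 (linear scale, adjusted p = 0.285) and above lung by 87.2 (adjusted p = 0.0542). For Fdps the inferred linear levels were 3874 ± 54 (SE) in liver, 634 ± 81 in brain and 950 ± 82 in lung, where the pure arrays had 3540, 716 and 852. For Idi1 they were 2219 ± 19, 320 ± 28 and 449 ± 29, against pure levels of 2168, 500 and 467. The ratio of inferred to pure liver level was 1.09 for Fdps, 1.02 for Idi1, 0.80 for Sqle, 0.84 for Dhcr7 and 0.86 for Fdft1, and the second probe sets gave 0.80 for Idi1 and 0.76 for Fdft1. In liver 3 of 5 genes were below the pure level, against 77.5% of all probe sets. Of 2271 probe sets whose pure liver level was at least 2-fold that of both others, 88.5% were below their pure level.

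In brain all 5 genes had a lower inferred than pure level, as did 78.6% of all probe sets and 95.1% of 2271 probe sets whose pure liver level was at least 2-fold that of both others. For Dhcr7 the inferred brain level was -1.95 ± 41.0, which cannot be told from 0, while the pure arrays had 178.4. The ratio was 0.60 for Fdft1, 0.64 for Idi1, 0.77 for Sqle and 0.89 for Fdps. The median ratio in brain was 0.89 over all probe sets and 0.41 over those 2271. The second probe sets gave lower ratios, 0.39 for Fdft1 and 0.28 for Idi1. In lung the 5 ratios lay between 0.96 (Idi1) and 1.20 (Dhcr7), with 2 of 5 below the pure level. That held for 87.4% of all probe sets and for 54.6% of the 2271, whose median ratio in lung was 0.98.

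The order of brain and lung differed from that on the pure arrays for 4 of 5 genes, while Fdps had lung above brain by both. Inferred brain was below inferred lung for 5 of 5 genes, and called so for 2, Idi1 by -128.6 (adjusted p = 0.0226) and Fdps by -315.7 (adjusted p = 0.0467), against 31.7% of probe sets (60.6% in either direction). The second probe sets gave other calls: that of Idi1 was not called (-109.9, adjusted p = 0.0551), and that of Fdft1 was (-91.9, adjusted p = 0.0258). On the pure arrays brain was above lung for 4 of 5, with 0 of 5 called at the 2-fold limit. The Fdps call ended on leaving out any 1 of 14 of the 33 mixture arrays, with adjusted p up to 0.0997, and that of Idi1 on leaving out any 1 of 3, up to 0.0937. Dhcr7 was called after repeated quantile normalization (-132.2, adjusted p = 0.0422). The calls of Idi1 and Fdps ended after median centring, repeated quantile normalization and control-curve scaling, and under the last of these Fdft1 (53.5) and Sqle (34.0) had inferred brain above inferred lung. The hepatocyte markers described above were higher in pure brain than in pure lung, and their part in the gap between pure and inferred brain levels was not tested.

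**Figure D5:**
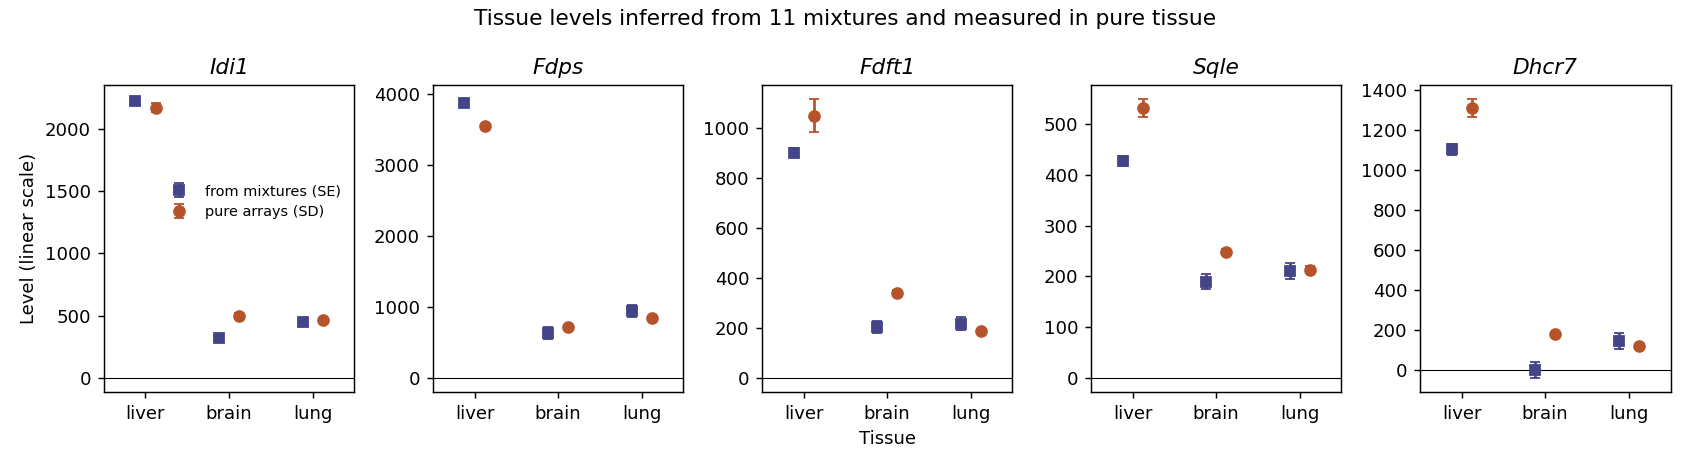
Level on the linear scale (vertical axis) in liver, brain and lung as inferred from the 11 mixtures (squares, SE) and as measured on pure arrays (circles, mean and SD of 3 arrays). Liver is highest in every panel by both measures, and the inferred brain level lies below the pure one in each, reaching -1.95 for Dhcr7.

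The 5 genes had similar profiles over the 14 groups. Pearson's r between their group means ran between 0.871 (Fdps and Sqle) and 0.994 (Idi1 and Dhcr7). All groups hold RNA of the same 3 tissues, so these values describe shared tissue proportions and are not independent points. Among 8486 other genes with a range of at least 1 (log2), the profiles most like that of Idi1 were Mtch2 (r = 0.999) and Sar1b (0.998), and those most like Fdps were Gstz1 and Ddt (0.998 each). Fdft1 was nearest to Mocs2 (0.998) and Fkbp4 (0.997), Sqle to Limk2 (0.998) and Txn2 (0.997), and Dhcr7 to Bckdhb and Entpd5 (0.999 each). Each of these 10 genes was highest in liver, which follows largely from choosing them by likeness to members that are highest in liver.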

How the data were processed

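Values were deposited as log2 levels per probe set (2.12 to 14.43, array medians 5.48 to 5.83) after RMA by the authors, per the submitters' processing notes, which name no version. RMA gives arrays a similar distribution, so tissues that spread their RNA unevenly over genes may be scaled unevenly. Of 31099 probe sets, 57 controls were left out. The platform annotation gave 1 gene for 20826 probe sets, and the probe set brightest on average stood for its gene.

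One model over all 42 arrays (limma version 3.58.1 in R version 4.3.3) estimated the 14 group means, leaving 28 residual degrees of freedom to which moderation added 4.56, with Benjamini-Hochberg adjustment over 31042 probe sets. Errors of departures came from the delta method. The mixtures-only regression used linear group means with limma's variance trend. The steps were tested on simulated data. Members, lists and alternatives were chosen with earlier results of these data known. Named were all members and the 2 closest profiles per member. List genes were named if at least 2-fold higher in 1 tissue than in both others, or opposite to the members. Other list genes (Msmo1, Sc5d, Lss, Srebf1, Scarb1, Mbtps1) were named after their values were seen. Plots used matplotlib version 3.10.9 (Python version 3.11.15).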

Additional observations from a re-analysis of the deposited data

How the results depend on the processing

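Counts of called members were recomputed under other array selections, variance models, scalings, a background subtraction (5th percentile), a filter on dim probe sets, the mean over a gene's probe sets, and without each array in turn. Pure liver against brain and against lung kept 4 to 5 of 5, and pure brain against lung 0 of 5, under all of these. For 70/25/5 against 25/70/5 the count was 3 under control-curve scaling. For 70/25/5 against 70/5/25 it was 2 after median centring and 1 each with a variance trend, the subtraction, bright probe sets only and the mean over probe sets, and between 0 and 1 without single arrays. The departure count was 1 after median centring. The mixtures-only regression gave 12 calls in 15 comparisons, 8 under control-curve scaling and 13 when fitted to 33 arrays, and between 10 and 13 without single arrays. The causes of these changes were not tested, and shares over all probe sets are given for the deposited values only. No called value changed its sign, but departures under the fold limit did, as given above. No paired analysis was possible because the labels give no replicate numbers, and those used here follow only the order of the sample accessions. Whether the hybridisation controls entered every array in the same amount was not tested.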
